A study of Oryza sativa with 81 samples.

Results

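The 4 hybrids of a factorial rice cross were compared by whether WFB or RFB was one of their parents, in filling panicles. WY998 (WFB with R998) and WY308 (WFB with R308) carried WFB, and RY998 (RFB with R998) and RY308 (RFB with R308) carried RFB. The 12 libraries, 3 of each hybrid and numbered 7 to 9, were chosen by their labels from 81 libraries of 9 lines in 3 tissues. All 4 hybrids were first-generation plants of Oryza sativa, which the labels place in a field, with no treatment named; the 6 WFB hybrid libraries and the 6 RFB hybrid libraries had R998 and R308 in equal parts as the other parent. Parents WFB and RFB, the cross WR between them, and parents R998 and R308 were each sequenced in 3 libraries of the same tissue and serve as further levels. The study's title names the prediction of heterosis, by which a cross outperforms the lines it was made from. The labels do not say what distinguishes WFB from RFB, nor whether replicates were separate plants or plots, so p-values cover only the spread between these libraries.

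In a factorial cross the same parents are combined in every pairing. The part of a hybrid's performance that follows a parent whatever its partner is called general combining ability, and the part that depends on the particular pairing is called specific combining ability. A similar division can be made for the level of a transcript: an effect averaged over the other parent, and an interaction with the other parent. Both were tested on the log2 scale here. On that scale a gene whose hybrids all lie at the arithmetic mean of their parents can also give an interaction. A filling panicle is the flowering head of rice after fertilisation, when the developing grains lay down starch and storage proteins. The gene models are given by their identifiers, which the files do not pair with names, so what each one encodes is not stated. The first 2 digits of an identifier run from 00 to 12 and are called identifier blocks here.

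The 12 libraries held 31923475 to 45765805 counts, and 27609 to 34375 of 38714 gene models had a count, the highest number in RY308 replicate 8. Libraries of a line had a mean correlation of at least 0.989 with each other, across genes on a log scale, except in WY308. WY308 replicates 7, 8 and 9 had means of 0.968, 0.980 and 0.969, each below its highest correlation with a library of RY998 (0.980, 0.986 and 0.973). Replicate 9 still correlated more highly with WY308 replicate 8 (0.981) than with any RY998 library. The labelled crosses were checked on genes with at least 5 CPM (the count scaled by library size) in R998 or R308 and under 0.1 CPM in the 3 other parents. The 25 R998 genes had a median of 49.1% to 53.5% of the R998 level in WY998 libraries and 45.2% to 47.7% in RY998 libraries, and a median of 0 in every WY308 and RY308 library. The 3 R308 genes had medians of 47.0% to 56.7% of the R308 level in WY308 and 35.1% to 41.5% in RY308, and at most 0.485% in WY998 and RY998. The 4 hybrids thus held the transcripts of R998 or R308 that their labels name. Genes enriched in filling panicles took 19.9% to 35.3% of the counts of the 12 libraries. In parent R998 they took 38.5% in replicate 9, against 19.6% and 16.5% in replicates 7 and 8. In parent R308, replicate 9 had counts on 37377 gene models, against 27511 and 27193 in replicates 7 and 8.

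Averaged over the other parent, few genes differed between WFB hybrids and RFB hybrids. Of 25336 genes tested, 92 passed (0.363%), 59 higher and 33 lower in WFB hybrids (Benjamini-Hochberg adjusted p under 0.05 in edgeR's quasi-likelihood model, two-sided). Of the higher genes 26 and of the lower genes 16 differed by 2-fold or more, while the median absolute log2 difference over all tested genes was 0.11. The 6 libraries of WFB hybrids lay wholly above those of RFB hybrids for 20 of the 92 and wholly below for 11. Over all tested genes 30 lay wholly above and 28 wholly below, 0.229% together. The count was 163 by DESeq2 and 56 when only the 12 libraries entered the fit. It fell to 58 without RY998 replicate 9 or without RY308 replicate 7 and was 195 without RY308 replicate 9.

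Among genes that passed with at least 5 CPM in the higher group and no overlap between libraries, the one with the largest positive difference was OsR498G0611596200.01. It had 15.8, 16.9 and 14.8 CPM in WY998 and 13.1, 9.50 and 10.9 CPM in WY308, against 8.27, 8.32 and 8.87 CPM in RY998 and 0.174, 0.399 and 0.135 CPM in RY308. All WFB hybrid libraries were above all RFB hybrid libraries, but the gap was narrow with R998 and wide with R308. WFB hybrids averaged 13.5 ± 2.89 CPM and RFB hybrids 4.36 ± 4.52 CPM (SD, n = 6 libraries each). Each SD pools libraries of different hybrids, so it includes the gap between those hybrids and is not a spread of replicates. The averaged log2 difference was 3.25 with a standard error of 0.16 (edgeR adjusted p = 2.22e-11). Between crosses it was 0.90 with R998 and 5.59 with R308, and that difference passed the interaction test (edgeR adjusted p = 1.65e-10). The parental levels were 13.6, 14.2 and 14.1 CPM in WFB, 0.212, 0.153 and 0.372 CPM in RFB, 20.1, 18.8 and 17.7 CPM in R998 and 0.511, 0.261 and 0.369 CPM in R308. RY308, the hybrid at the bottom, is the one whose parents were both near 0.

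OsR498G0714837000.01 was higher in WFB hybrids by a log2 difference of 1.04 in each cross. It had 35.4, 33.6 and 30.9 CPM in WY998 and 26.5, 27 and 21.5 CPM in WY308, against 16.7, 15.3 and 16.6 CPM in RY998 and 13.1, 12.9 and 10.5 CPM in RY308. The groups did not overlap, and the averaged log2 difference was 1.04 with a standard error of 0.21 (edgeR adjusted p = 0.0281). WFB had 39.0, 30.9 and 39.0 CPM and RFB 0.0708, 0.398 and 1.61 CPM, while R998 and R308 lay between 25.5 and 36.4 CPM. RFB was thus the one parent with a low level, and its hybrids lay near the middle between it and the other parent. The adjusted p of this gene reached 0.0521 to 0.0973 without any of 9 single libraries, with a log2 difference of 1.01 to 1.07.

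The lower genes showed the reverse arrangement. OsR498G0613162800.01 had 0.0307, 0 and 0.0268 CPM in WY998 and 3.19, 2.89 and 2.70 CPM in WY308, against 3.67, 3.28 and 3.83 CPM in RY998 and 7.20, 7.97 and 7.99 CPM in RY308. WFB hybrids were below RFB hybrids in every library, and WY998 was at the counting floor. RY998 exceeded WY998 by a ratio of 199, from 395 and 2 counts, with a counting interval from 54.6 to 1646. With R308 the log2 difference, WY308 minus RY308, was -1.40 with a standard error of 0.20 (edgeR adjusted p = 3.60e-05). WFB and R998 were both at 0.0384 CPM or less in every library, while RFB had 6.82 to 7.83 CPM and R308 5.65 to 6.85 CPM.

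OsR498G0714841800.01 had 3.47, 3.0 and 3.41 CPM in WY998 and 5.37, 6.21 and 5.73 CPM in WY308, against 10.04, 10.7 and 10.8 CPM in RY998 and 11.4, 9.37 and 11.1 CPM in RY308. The averaged log2 difference was -1.28 with a standard error of 0.10 (edgeR adjusted p = 6.07e-08). Here WFB was the low parent, at 0.560 to 0.670 CPM, against 10.8 to 14.7 CPM in RFB. The difference was larger with R998 (log2 -1.68) than with R308 (-0.88), and the interaction passed (edgeR adjusted p = 0.0054). R998 had 6.59 to 7.67 CPM and R308 11.5 to 13.5 CPM, so WFB hybrids ranked as their other parents did.

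**Figure D1:**
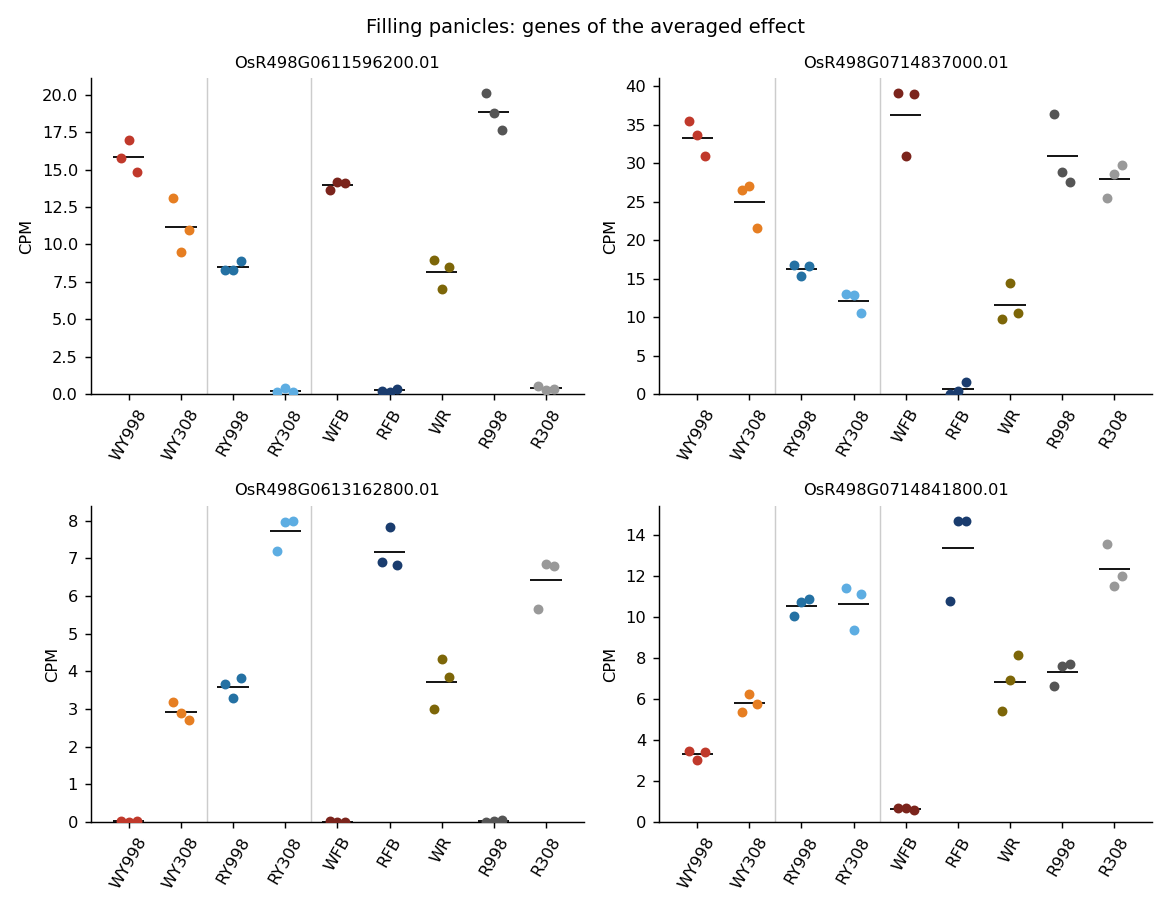
CPM of the 4 genes named for the averaged effect in each filling panicle library (points) with the mean of each line (bar), WFB hybrids at the left, RFB hybrids next, then the other 5 lines. In all 4 panels the 6 points of WFB hybrids lie wholly on one side of the 6 points of RFB hybrids, and the hybrids lie between or beside the levels of their own parents.

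The parents themselves gave a comparison between libraries other than those of the hybrids. Both comparisons came from the same model and share its estimate of spread. Between WFB and RFB, 180 genes passed (0.710% of 25336), 99 higher and 81 lower in WFB. Of these, 175 had the same sign in the hybrids and 5 the opposite sign, where 53.5% of all genes with a difference in both had the same sign. There were 75 genes that passed in both comparisons, which is 81.5% of the 92 of the hybrids and 41.7% of the 180 of the parents, and all 75 had the same sign. Among the 105 parental genes that did not pass in the hybrids, 71 had an unadjusted p under 0.05 there, as had 1864 of all 25336 tested genes.

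The leading parental genes showed what became of a large parental difference in the hybrids. OsR498G0408431100.01 had 9.84, 8.61 and 9.79 CPM in WFB and no count in RFB, at least 292-fold higher in WFB when RFB is set to a floor of 3 counts in all. In the hybrids it had 9.52, 7.96 and 8.50 CPM in WY998 and 2.78, 3.13 and 3.62 CPM in WY308, against 3.49, 3.28 and 4.30 CPM in RY998 and 0, 0.166 and 0.0271 CPM in RY308. The levels of WY308 and RY998 overlapped, and both lay far from the other hybrids, WY998 above and RY308 below. R998 had 7.48 to 9.20 CPM and R308 had no count, so WY308 and RY998 each had 1 parent with the transcript. OsR498G0611623000.01, higher in WFB by a ratio of 1798 from 2237 and 1 counts (counting interval 322 to 71053), had 16.7 to 20.2 CPM in WY998 and 3.27, 5.11 and 16.5 CPM in WY308, against 5.01 to 8.64 CPM in RY998 and 0, 0.864 and 0 CPM in RY308. WY308 replicate 9 stood well above the other WY308 libraries.

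On the lower side of the parental comparison, one gene was lower in WFB hybrids as well and one did not pass there. OsR498G0102133700.01 had 1.03, 1.91 and 0.895 CPM in WFB against 7.79, 9.45 and 8.49 CPM in RFB. WFB hybrids had 0.933 to 1.96 CPM and RFB hybrids 2.60 to 4.96 CPM, without overlap, and the averaged log2 difference was -1.41 with a standard error of 0.24 (edgeR adjusted p = 0.00322). OsR498G0613323500.01 had 0.576, 1.02 and 1.06 CPM in WFB against 4.39, 7.95 and 4.74 CPM in RFB. Its WFB hybrid libraries had 1.21 to 5.74 CPM and its RFB hybrid libraries 3.09 to 5.52 CPM, and the averaged difference did not pass (log2 -0.40, standard error 0.29, edgeR adjusted p = 0.871).

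The size of the hybrid effect was set beside the size expected if each hybrid lay at the arithmetic mean of its parents. For the 180 parental genes the median parental log2 difference was 1.68 in size, with 0.05 CPM added to each level. The expected median in the hybrids was 0.71 in the parental direction, and the measured median was 0.59. The measured value lay within 0.5 of the expected one for 153 of the 180 genes, and the correlation across these genes was 0.955; they are not independent of each other, and expected and measured values share no library. Of 55 genes with an expected difference of at least 1 on the log2 scale, 38 passed in the hybrids, and of 54 with an expected difference under 0.5, 14 passed. For these 54 genes, hybrids without any difference would also lie within 0.5 of the expected value. This comparison was added after the values had been seen and carries no test.

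**Figure D2:**
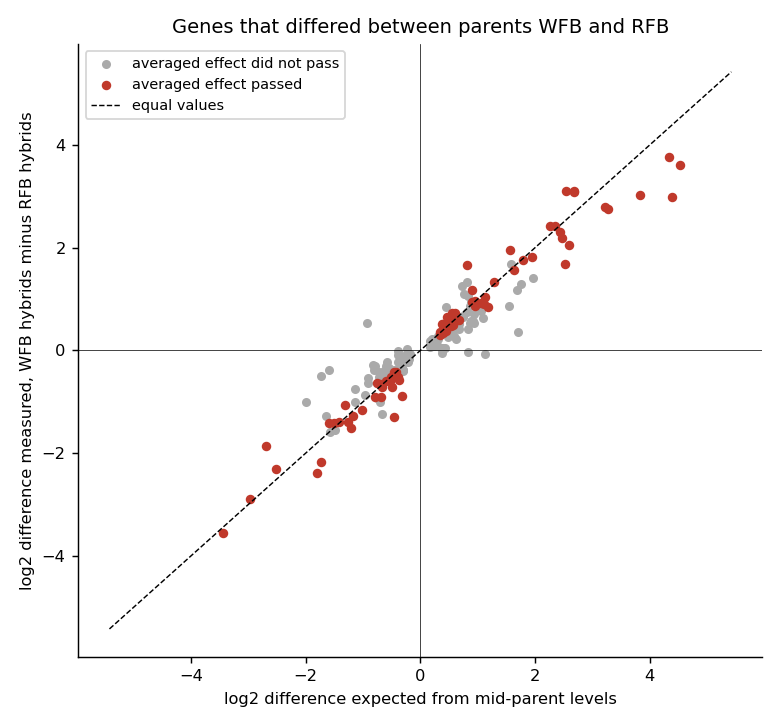
Each point is one of the 180 genes that differed between WFB and RFB, with the log2 difference expected in the hybrids from mid-parent levels on the x axis and the measured averaged log2 difference, WFB hybrids minus RFB hybrids, on the y axis. Most points lie near the dashed line of equal values, 153 of them within 0.5, and red points passed the test in the hybrids.

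Genes present in one of WFB and RFB and near-absent in the other made the dependence on the other parent visible. Such genes were taken only from the 180 that passed between WFB and RFB. They had at least 2 CPM in one of them and at most 5% of that level in the other. R998 and R308 were called present at 50% or more of the higher parent's level and absent at 5% or less. These limits were set after the data had been seen, and the genes were chosen by the parental test and the levels of the 4 parents. In 9 genes WFB and R998 had the transcript while RFB and R308 did not. Their median level, as a percentage of WFB, was 95.3% in WY998 and 40.4% in WY308, against 44.6% in RY998 and 1.34% in RY308, with 43.2% in WR. By these medians the hybrids fell into 3 levels by how many of their parents had the transcript. Single genes departed from the medians. In all WY308 libraries OsR498G0611596200.01, among the 9, lay above 40.4% of the mean WFB level, and OsR498G0408431100.01 lay below it.

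In 7 further genes only RFB lacked the transcript. Their median level was 91.8% of WFB in WY998 and 91.5% in WY308, against 42.2% in RY998 and 33.5% in RY308. By these medians WFB hybrids were at about the same level whichever the other parent was, and RFB hybrids differed little from each other. Single genes departed from this. Of the 7, OsR498G1119612600.01 had a measured log2 difference of -0.06 between WFB and RFB hybrids, where 1.13 was expected from mid-parent levels. In 3 genes RFB and R308 had the transcript and WFB and R998 did not, with medians of 0.267% of RFB in WY998 and 40.7% in WY308, against 38.5% in RY998 and 105% in RY308. A single gene of the 180, OsR498G0714841800.01, lacked it in WFB alone. None of the 180 was present in WFB or in RFB alone among the 4 parents by these limits, and 2 more genes of WFB had an intermediate level in R998 or R308. Genes that did not pass between WFB and RFB were not classed. Of the 9 genes 7 were in identifier block 06. All 9 passed for the averaged effect, and so did 5 of the 7 that only RFB lacked, where 0.363% of all tested genes passed. The same gene models served for every line, so a missing transcript and reads that could not be counted on a model cannot be told apart.

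The genes of the averaged effect were unevenly spread over the identifiers. Block 06 held 42 of the 92, 26 higher and 16 lower in WFB hybrids, which is 2.05% of its 2053 tested genes, against 50 of 23283 genes (0.215%) in the other blocks. Block 06 was divided into 5 equal parts along the identifier order, and part 1 held 28 of the 42, 5.80% of 483 tested genes, 20 of them higher and 8 lower. Parts 2 and 3 together held 1, part 4 held 5 and part 5 held 8. Elsewhere part 5 of block 07 held 7 of the 9 in that block, and blocks 00, 05, 08 and 12 held none. The parents had 88 of their 180 genes in block 06, 53 of them in part 1 and 22 in part 5. The block was singled out after earlier results had been seen, and neighbouring genes are not independent.

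**Figure D3:**
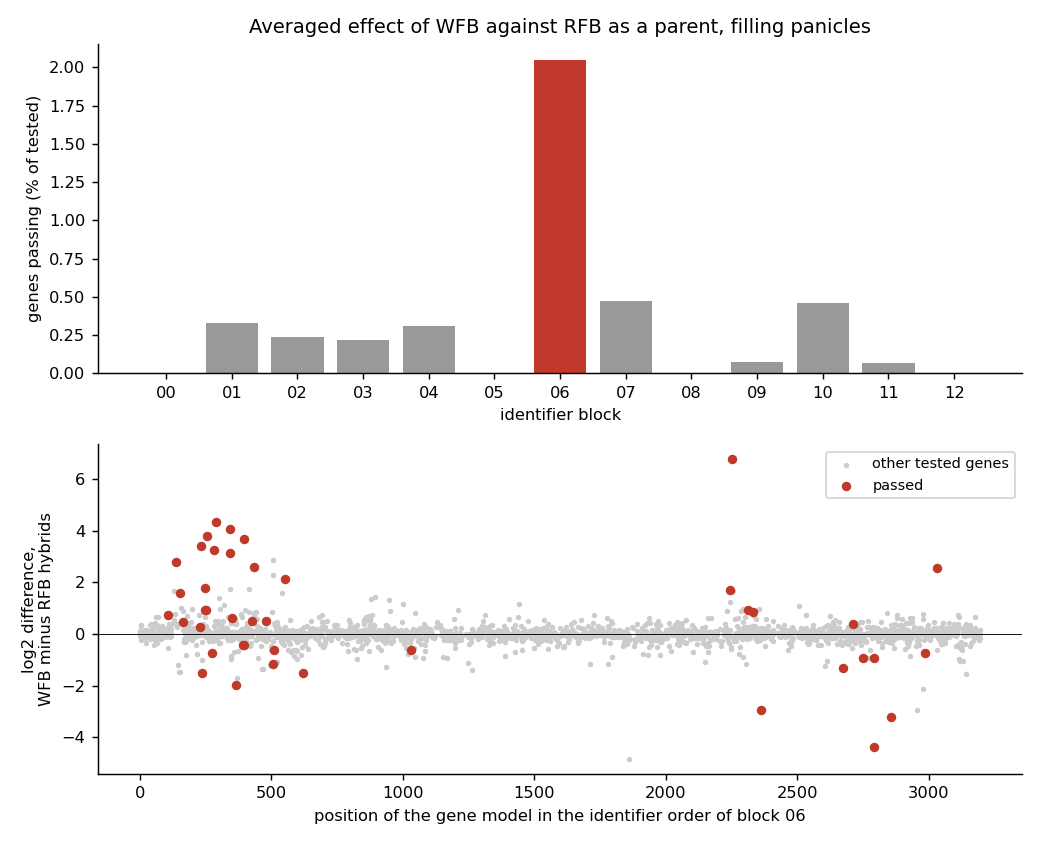
The upper panel gives the percentage of tested genes that passed for the averaged effect in each identifier block, and the lower panel the averaged log2 difference, WFB hybrids minus RFB hybrids, of each tested gene of block 06 along the identifier order. Block 06 reaches 2.05%, and its passing genes (red) gather near the start and, in smaller number, near the end.

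Not every gene of the averaged effect followed the parents. Of the 92 genes, 90 had the same sign between WFB and RFB and 2 did not. OsR498G1019258300.01 had 40.8, 48.6 and 48.6 CPM in WY998 and 64.5, 56.8 and 63.8 CPM in WY308, against 41.4, 45.5 and 40.6 CPM in RY998 and 27, 29.8 and 46 CPM in RY308, an averaged log2 difference of 0.48 (edgeR adjusted p = 0.0313). Its parental levels overlapped, at 39.0 to 45.9 CPM in WFB and 42.0 to 48.0 CPM in RFB. OsR498G0100940200.01 had an averaged log2 difference of -0.76 (edgeR adjusted p = 0.0323), with 2.01, 2.40 and 1.93 CPM in WY308 against 5.72, 6.21 and 4.23 CPM in RY308. Its R998 crosses overlapped, at 13.7 to 18 CPM in WY998 and 13.0 to 20.5 CPM in RY998. Both genes were named because they are the only 2 exceptions, and in both the averaged effect came from the R308 crosses. Of the 17 genes that passed in the hybrids and not between the parents, 12 also passed the interaction test, as did 34 of the 75 that passed in both comparisons and 21.8% of all tested genes.

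Within a single cross far more genes separated the WFB hybrid from the RFB hybrid than on average. WY998 and RY998 differed in 2538 genes (10% of those tested), 1346 higher and 1192 lower in WY998. WY308 and RY308 differed in 3646 genes (14.4%), 1986 higher and 1660 lower in WY308. The balance of directions depended on the settings: with DESeq2 size factors it was 1150 higher and 1315 lower in WY998, and 2258 higher and 1432 lower in WY308. The R308 count was 1259 when only those 6 libraries were fitted (850 higher and 409 lower), 2389 without RY308 replicate 7 and 2416 without RY308 replicate 8. Most genes that passed in both crosses had opposite signs there.

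Of 1716 genes that passed in both crosses, 1672 (97.4%) had opposite signs and 44 the same sign. The 1716 are 67.6% of the genes of the R998 crosses and 47.1% of those of the R308 crosses. The 2 comparisons share no library, but they come from the same model and share its estimate of spread. Their overlap was not counted with only the libraries compared, where the R308 crosses had 1259 genes. There were 742 genes higher in WY998 and lower in WY308, each against its RFB hybrid, and 930 the other way round. Over all tested genes 30.6% had the same sign, and the correlation across genes was -0.50. All 44 same-sign genes passed for the averaged effect, 27 higher and 17 lower in WFB hybrids. Of the 92 genes, 80 had the same sign in both crosses.

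**Figure D4:**
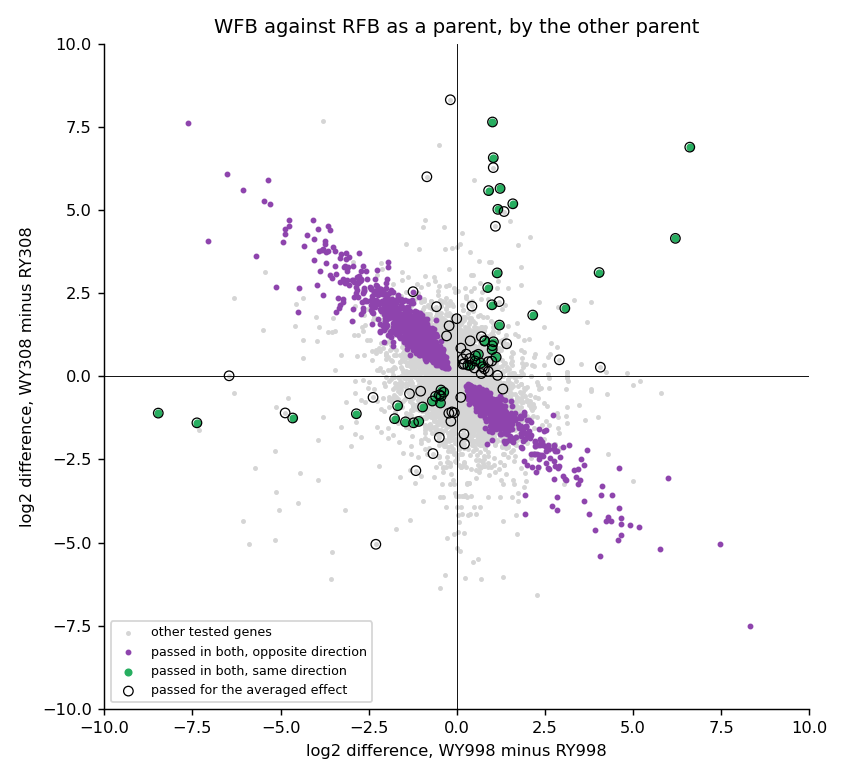
Each point is one of 25336 genes, with its log2 difference WY998 minus RY998 on the x axis and WY308 minus RY308 on the y axis. The 1672 genes that passed in both with opposite signs (purple) run from upper left to lower right, and the 44 with the same sign (green) lie in the other quadrants, all ringed as genes of the averaged effect.

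The interaction, the effect of WFB against RFB in R998 crosses minus that in R308 crosses, passed for 5526 genes (21.8%). There were 2959 with a positive and 2567 with a negative log2 difference, and the balance turned to 2450 and 2952 with DESeq2 size factors. A positive value means that the log2 difference WY998 minus RY998 exceeded the log2 difference WY308 minus RY308. For 2421 of the 5526 the 6 libraries of WY998 and RY308 did not overlap the 6 of WY308 and RY998, as for 2501 of all tested genes (9.87%), against 58 genes whose libraries divided by WFB and RFB. In bulk tissue, fewer cells of a type and less transcript per cell cannot be told apart in any of these differences.

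OsR498G0714482300.01 was the most abundant of the genes named for the interaction. It had 382, 443 and 589 CPM in WY998 and 25.1, 16.5 and 24.2 CPM in WY308, against 13.7, 22.2 and 19.5 CPM in RY998 and 475, 443 and 520 CPM in RY308. WY998 and RY308 were at one level and WY308 and RY998 at another, and the interaction log2 difference was 9.12 with a standard error of 0.37 (edgeR adjusted p = 3.77e-14). The averaged log2 difference was 0.11 (standard error 0.16, edgeR adjusted p = 0.975). Among the lines that the interaction did not compare, WFB had 504 to 727 CPM, RFB 628 to 658, WR 529 to 704, R998 519 to 862 and R308 13.1 to 22.1 CPM. R308 alone among them was at the level of WY308 and RY998.

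OsR498G0714331100.01 divided the same way, with 17.6, 21.5 and 25.8 CPM in WY998 and 1.60, 0.913 and 0.796 CPM in WY308, against 0.670, 0.773 and 1.10 CPM in RY998 and 18.5, 20.4 and 24.7 CPM in RY308. Its interaction log2 difference was 8.91 with a standard error of 0.36 (edgeR adjusted p = 3.59e-14). On the negative side, OsR498G0205048200.01 had 0.0614, 0.123 and 0.0536 CPM in WY998 and 4.96, 4.84 and 8.04 CPM in WY308, against 5.18, 6.96 and 4.96 CPM in RY998 and 0.0290, 0.199 and 0.135 CPM in RY308. The 4 lines WFB, RFB, WR and R998 were at 0.691 CPM or less in every library and R308 at 4.08 to 6.51 CPM. OsR498G0511426300.01 had 0.319 to 0.768 CPM in WY998 and 18.6, 21.8 and 37.4 CPM in WY308, against 20.3, 24.1 and 24.3 CPM in RY998 and 0.522 to 0.963 CPM in RY308. The interaction log2 differences of these 2 genes were -11.68 and -10.74 (edgeR adjusted p = 1.78e-11 and 7.62e-14).

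**Figure D5:**
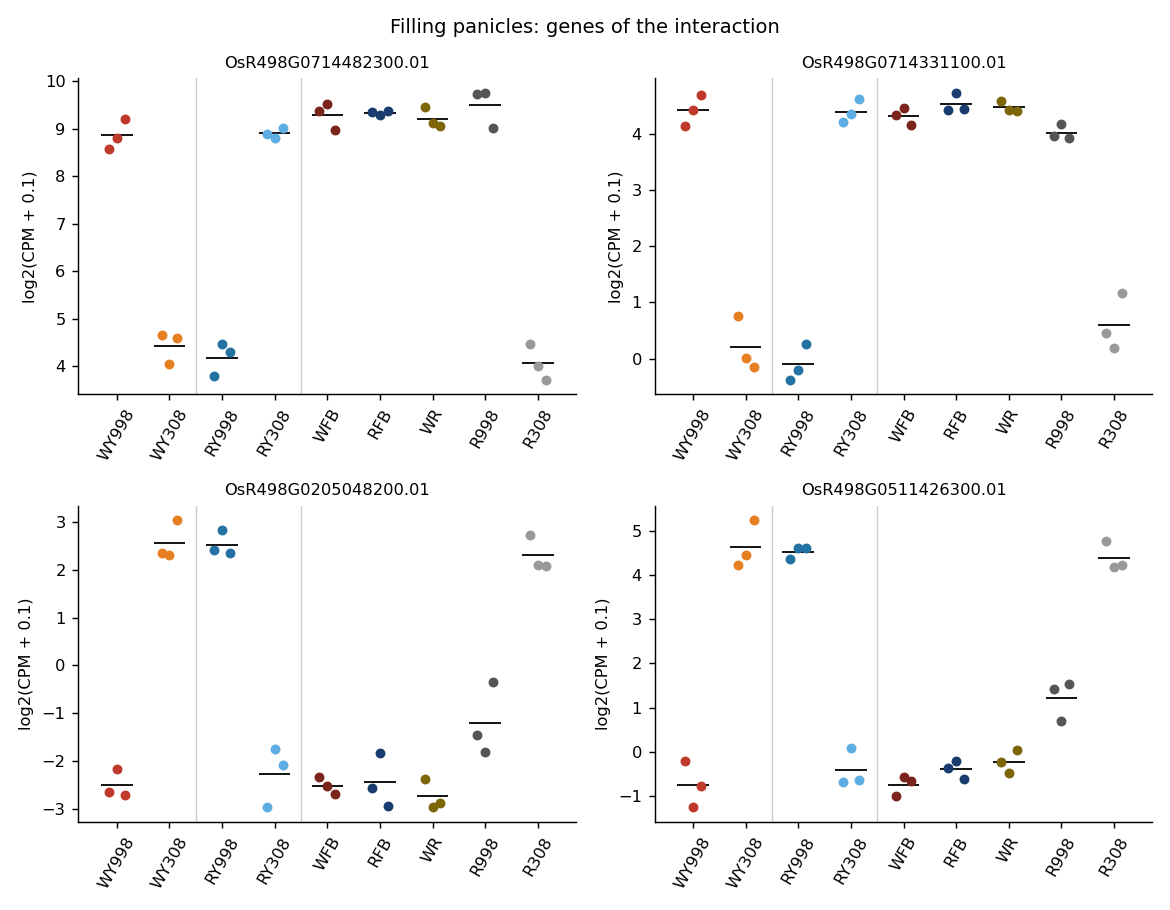
Levels of the 4 genes named for the interaction as log2(CPM + 0.1) in each filling panicle library (points) with the mean of each line (bar), WFB hybrids at the left and RFB hybrids next. WY998 and RY308 lie together with WFB, RFB and WR, and WY308 and RY998 lie together with R308; R998 lies with the first set in the upper panels and nearer to it than to the second in the lower ones.

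The genes named for the R998 crosses, taken from those with at least 5 CPM in the higher line, turned direction in the R308 crosses. OsR498G0612408600.01 had the largest positive difference, with 12.5, 13.6 and 21.1 CPM in WY998 against 0.0291, 0.0800 and 0.0262 CPM in RY998. In the R308 crosses it had 0.0726, 0.0609 and 0.103 CPM in WY308 against 17.5, 16 and 12.4 CPM in RY308. The log2 difference was 8.33 in the first pair and -7.52 in the second (edgeR adjusted p = 9.16e-08 and 1.19e-07). OsR498G0509718400.01 behaved alike, with 5.01, 5.18 and 10.6 CPM in WY998 against 0.408, 0.160 and 0.131 CPM in RY998.

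On the lower side of the R998 crosses the named genes turned direction as well. OsR498G0101835100.01 had 0, 0.0491 and 0.0268 CPM in WY998 against 4.34, 6.88 and 6.93 CPM in RY998, higher in RY998 by a ratio of 225 from 671 and 3 counts (counting interval 76.6 to 1093). In the R308 crosses it had 5.32, 5.42 and 8.68 CPM in WY308 against 0.0290, 0 and 0.0542 CPM in RY308, higher in WY308 by a ratio of 220 (75.0 to 1069). WFB, RFB, R998 and WR were at 0.241 CPM or less in every library and R308 at 3.18 to 7.40 CPM. OsR498G0102238700.01 had a log2 difference of -6.53 with R998 and 6.10 with R308 (edgeR adjusted p = 1.88e-11 and 3.07e-11).

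In the R308 crosses, OsR498G0101835100.01 (log2 7.62) and OsR498G0612408600.01 (-7.52), described above, were among the genes with the largest differences in each direction. Of the genes not yet described, OsR498G0611600600.01 and OsR498G0611586900.01, both higher in WY308 than in RY308, were genes that WFB and R998 had and RFB and R308 lacked. OsR498G0611586900.01 had 53.3, 44.8 and 47.6 CPM in WY998 and 21.9, 21.3 and 21.2 CPM in WY308, against 25.5, 22.7 and 23.0 CPM in RY998 and 0, 0.731 and 0 CPM in RY308. The single value in RY308 belonged to replicate 8, the library with counts on the most gene models, and the log2 difference in the R998 crosses was 1.03 (edgeR adjusted p = 0.0399). OsR498G0307083700.01 and OsR498G1120352700.01, both lower in WY308, followed the division by pairs. OsR498G1120352700.01 had 7.49, 7.20 and 7.94 CPM in WY998 and 0.314, 0.517 and 0.308 CPM in WY308, against 0.378, 0.693 and 0.420 CPM in RY998 and 10.4, 8.64 and 8.75 CPM in RY308. Its log2 difference was 3.91 in the R998 crosses and -4.62 in the R308 crosses (edgeR adjusted p = 1.69e-10 and 3.07e-11).

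For the 2421 genes whose hybrid libraries divided by pairs, the other 5 lines were assigned to the nearer side on the log scale. These genes had also passed the interaction test, whose fit held the libraries of the 5 lines without comparing their levels. WFB lay nearer to WY998 and RY308 for 94.0% of these genes, RFB for 93.8%, WR for 89.5%, R998 for 68.2% and R308 for 11.5%. Over all 25336 tested genes the shares were 67.7% for WFB, 66.9% for RFB, 64.7% for WR, 51.6% for R998 and 37.1% for R308. WFB, RFB and WR were thus mostly on the side of WY998 and RY308, R308 mostly on that of WY308 and RY998, and R998 between. That the hybrids divide by neither of their parents in these genes is fixed by how the genes were chosen. The labels name nothing that WY998 shares with RY308 and not with the other hybrids, and what set the pairs apart was not tested. These shares were computed after the data had been seen and carry no test.

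The interaction was not tied to block 06, where 450 of 2053 genes passed (21.9%), against 5076 of 23283 (21.8%) in the other blocks. It did differ in frequency between genes by the tissue they are enriched in, at least 8-fold over both other tissues in the mean of the 4 parents with 0.1 CPM added. Of 644 tested seedling-enriched genes 176 passed with a positive and 132 with a negative value (47.8%), against 21.8% of all genes. Of 863 filling-panicle-enriched genes 139 passed (16.1%), and of 681 young-panicle-enriched genes 109 (16%). Median interaction log2 differences were 0.13, -0.02 and -0.22 for these sets, and 0.09 over all tested genes. Seedling-enriched genes took 6.53% ± 1.57 of the counts in WY998 and 7.69% ± 0.939 in WY308, against 8.08% ± 1.08 in RY998 and 5.89% ± 0.769 in RY308 (n = 3 each, SD). The part of these shares in the interaction was not tested. Filling-panicle-enriched genes took 27.4% ± 5.21 in WY998 and 29.2% ± 8.10 in WY308, against 28.6% ± 3.22 in RY998 and 33.0% ± 2.67 in RY308.

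The same comparison was made in young seedlings and young panicles of the 4 hybrids, in 1 model over 36 libraries and 26419 genes. In that model 115 genes passed in filling panicles (0.435%, 62 higher and 53 lower), while the 92 genes come from the model of filling panicles alone. Averaged over the other parent, WFB hybrids and RFB hybrids differed in 348 genes in seedlings (1.32%, 168 higher and 180 lower) and in 2985 genes in young panicles (11.3%, 1758 higher and 1227 lower). The crosses were not tested separately in these tissues, so these counts do not show a difference in both. An averaged difference there can come from a single hybrid, as for OsR498G0409483700.01 in young panicles, described below. The seedling count was 579 by DESeq2 and 231 without WY308 replicate 1. Of the 92 genes of filling panicles, 49 passed in seedlings and 58 in young panicles, all with the same sign, and 41 passed in both. The sign was the same for 78 and 81 of the 92, where over all genes with a difference in both it was the same for 51.0% and 50.9%. Block 06 held 93 of the seedling genes (4.31% of its tested genes, against 255 of 24259 in the other blocks) and 324 of those of young panicles (15%, against 11%).

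The leading gene of filling panicles kept its pattern in both other tissues. OsR498G0611596200.01 had 9.32, 9.83 and 9.40 CPM in WY998 seedlings and 4.93, 4.78 and 4.42 CPM in WY308 seedlings, against 4.63, 5.38 and 4.31 CPM in RY998 and 0.392, 0.0799 and 0.147 CPM in RY308. Its averaged log2 difference was 2.74 in seedlings and 2.88 in young panicles (edgeR adjusted p = 1.16e-10 and 1.20e-12). The difference between tissues did not pass for filling panicles against seedlings (log2 0.50, standard error 0.30) or against young panicles (0.36, standard error 0.29). OsR498G0613162800.01 had no count in WY998 seedlings and in 2 of the WY998 young panicle libraries, but 3.77 CPM in WY998 replicate 6. That library stood apart from the other WY998 young panicles for this gene, and without it the young panicle count was 2455.

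The averaged effect differed between filling panicles and seedlings in 40 genes (0.151%), and between filling panicles and young panicles in 1163 (4.40%, 456 with a higher and 707 with a lower value in filling panicles). The first count was 169 by DESeq2 and ranged from 25 to 80 when single libraries were left out, with 25 without RY308 replicate 8, 26 without RY998 replicate 8 or RY998 replicate 9, 66 without WY308 replicate 9, 71 without RY308 replicate 9 and 80 without WY308 replicate 7. It was 26 with the replicate number as a block. The second count was 758 without RY308 replicates 4 and 8 together. Of the 92 genes 9 passed for the first difference and 19 for the second.

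OsR498G0611577400.01 had a more negative averaged effect in filling panicles than in seedlings. It had 7.86, 5.53 and 3.86 CPM in WY998 filling panicles and 13.7, 28.9 and 22.6 CPM in WY308, against 24.6, 17.4 and 16.5 CPM in RY998 and 61.8, 55.2 and 40.4 CPM in RY308. In seedlings no library exceeded 2.56 CPM, and WFB hybrids had 0.461 to 2.56 CPM against 0.0294 to 0.903 CPM in RFB hybrids. The averaged log2 difference was -1.52 in filling panicles (edgeR adjusted p = 0.00783) and 1.14 in seedlings (adjusted p = 0.0869), and the tissue difference was -2.66 (edgeR adjusted p = 0.000733). OsR498G0306903500.01 differed in seedlings (log2 -1.67, edgeR adjusted p = 0.000685) and did not pass in filling panicles (log2 0.20, adjusted p = 0.796). Filling panicles had 11.8 to 22.9 CPM in WFB hybrids and 12.1 to 16.2 CPM in RFB hybrids, and seedlings 0.0746 to 0.432 CPM in WFB hybrids and 0.479 to 0.961 CPM in RFB hybrids, a tissue difference of 1.87 on the log2 scale (edgeR adjusted p = 0.00535).

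A gene named for the difference between filling and young panicles had a single hybrid apart in young panicles. OsR498G0409483700.01 had 0.671, 0.883 and 0.560 CPM in WY998 and 0.632, 0.802 and 0.615 CPM in WY308, against 0.363, 0.795 and 0.698 CPM in RY998 and 68.2, 74.8 and 76.9 CPM in RY308. In filling panicles it had 76.0, 94.1 and 112 CPM in WY998 and 5.81, 2.95 and 6.19 CPM in WY308, against 5.30, 4.85 and 4.83 CPM in RY998 and 99.2, 97.1 and 110 CPM in RY308. The averaged log2 difference was -3.29 in young panicles and -0.06 in filling panicles, and it differed between the tissues by 3.22 (standard error 0.22, edgeR adjusted p = 3.59e-11). RY308 was the high line in young panicles, and WY998 joined it in filling panicles.

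The genes that divided by pairs in filling panicles were followed in the other tissues, each line being set above or below the mean of the 9 lines. In young panicles, over 2332 of the 2421 genes, WFB lay toward the filling panicle side of WY998 and RY308 for 79.8%, RFB for 76.8%, WR for 76.9% and RY308 for 82.7%. WY998 did so for 20.4%, WY308 for 22.3%, RY998 for 17.1%, R998 for 28.6% and R308 for 19.2%. WY998 was thus on the opposite side from the one it took in filling panicles, and RY308 on the same. Over all genes the shares in young panicles ran from 39.9% for R308 to 60.4% for RY308. In seedlings, over 2306 genes, the 9 lines had shares of 34.2% to 65.9% (43.3% to 57.7% over all genes), with 55.0% for WY998 and 50% for WY308, against 65.4% for RY998 and 65.0% for RY308.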

How the data were processed

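Total RNA of filling panicles, young seedlings and young panicles was depleted of ribosomal RNA and sequenced by a stranded method, per the labels' protocols. The submitters' processing notes name HISAT2, an aligner. The sources used here give neither its version nor the counting tool, its use of strand, the genome or the gene models. The authors deposited whole-number read counts per gene model, and these counts were used. The deposited FPKM values were not used. Of 38714 gene models 452 had no count in any library, no sample column was left unused, and none of the identifiers was found in a RefSeq gene table of 39387 genes from another assembly. Values of genes with a near-identical or overlapping copy are uncertain.

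The labels for line and tissue gave the groups. The counts went into edgeR 4.0.16 under R 4.3.3, with filterByExpr, TMM scaling, and a quasi-likelihood model with a mean for each line over the 27 filling panicle libraries, so that all lines share the estimate of spread, or for each line and tissue over 36 libraries of the 4 hybrids. P-values were two-sided and adjusted by the Benjamini-Hochberg method over all genes tested, with a threshold of 0.05. CPM values are scaled by TMM. All 12 pairs of replicates differed beyond counting noise (chi-square over its degrees of freedom, 13.9 to 273), so each library was 1 replicate. Ratios with a group at 1 to 3 counts carry exact 95% intervals, a group at 0 was set to 3 counts, and both cover counting error only. Same-numbered libraries of different lines had 18 correlations of their deviations from -0.628 to 0.400, of which 4 were over 0.1, so the numbers were not taken to pair the libraries. The test was tried on simulated counts.

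Genes were named at an adjusted p under 0.05 and a mean of 5 CPM or more in the group with the higher level, with the 2 largest log2 differences in each direction and, for the averaged effect and comparisons of 2 lines, no overlap of libraries; genes named earlier were passed over, and sets of at most 5 genes singled out were named whole. The libraries, lists, rules and blocks were chosen with earlier results of these data known. Alternatives were DESeq2 1.42.0, its size factors, other filters on low counts, the replicate number as a block, leaving out block 00, leaving out libraries, and fitting only the libraries compared. Figures were drawn in Python 3.11.15 with matplotlib 3.10.9.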

Additional observations from a re-analysis of the deposited data

Results flagged for a closer look

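The effect of WFB against RFB was tested for a difference between R998 crosses and R308 crosses, and 5526 genes passed the interaction test. The log2 difference between the crosses was 9.12 for OsR498G0714482300.01, 8.91 for OsR498G0714331100.01, -11.68 for OsR498G0205048200.01 and -10.74 for OsR498G0511426300.01. Among the genes named for the averaged effect it was -4.69 for OsR498G0611596200.01, -5.98 for OsR498G0613162800.01 and -0.80 for OsR498G0714841800.01, so the averaged value of these 3 genes stands for a different size in each cross. The value of OsR498G0613162800.01 is fitted to a group with 2 counts and is no bound.

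The averaged effect was tested for a difference between tissues. Between filling panicles and seedlings 40 genes passed, with log2 differences of 2.89 for OsR498G0611656900.01, 1.87 for OsR498G0306903500.01, -4.05 for OsR498G0613248700.01 and -2.66 for OsR498G0611577400.01. Without any of 17 single libraries the adjusted p of OsR498G0611656900.01 was 0.0520 to 0.176, and with the replicate block it was 0.0945. Between filling panicles and young panicles 1163 genes passed, with 3.91 for OsR498G0102775000.01, 3.22 for OsR498G0409483700.01, -3.91 for OsR498G0409340800.01 and -3.91 for OsR498G0101472900.01. Without any of 7 single libraries the adjusted p of OsR498G0101472900.01 was 0.0505 to 0.101. OsR498G0101472900.01 had no count in WY308 filling panicles and 10 in RY308, and OsR498G0613248700.01 had 1 count in WY998 filling panicles, so their fitted values depend on the prior count and are no bounds.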

How the results depend on the processing

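The count of the averaged effect, 92, was 163 with DESeq2 and 56 when only the libraries compared were fitted; it ranged from 58 to 195 when single libraries were left out. The R308 crosses, 3646, had 1259 when only the libraries compared were fitted and 2389 to 3644 without single libraries. The averaged effect in seedlings, 348, was 579 with DESeq2 and 231 (without WY308 replicate 1) to 379. The difference between filling panicles and seedlings, 40, was 169 with DESeq2, 26 with the replicate block, 24 without RY308 replicates 4 and 8 together, and 25 to 80 without single libraries. The difference between filling and young panicles, 1163, was 758 without RY308 replicates 4 and 8 together and 904 to 1610 without single libraries. The cause of these shifts was not tested. Without single libraries the R998 crosses had 1734 to 1891 genes, the interaction 4535 to 5418, the parents 124 to 144, opposite signs in both crosses 1270 to 1656, block 06 33 to 45, genes shared with the parents 64 to 70, and young panicles 2192 to 3221.

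With the replicate number as a block, which does not pair the libraries, the averaged effect had 78 genes, the R998 crosses 2343, the R308 crosses 3368, the interaction 5226, the parents 162, opposite signs 1568, block 06 40, genes shared with the parents 69, seedlings 299, young panicles 2592 and the difference from young panicles 969. The balance of directions turned in several comparisons. In the R998 crosses it turned with DESeq2 (1362 higher and 1533 lower), DESeq2 size factors (1150 and 1315), a filter of 1 CPM (1214 and 1306), without block 00 (1154 and 1306), with only the libraries compared (1240 and 1591), and without WY998 replicate 9 or any RY998 library. In the interaction it turned under the same 5 settings (2704 and 3198, 2450 and 2952, 2592 and 2807, 2505 and 2873, 2307 and 2579), without R998 replicate 9, R308 replicate 9 and RY308 replicate 8 together (2816 and 2913), and without WY998 replicate 9 or WY308 replicate 7. In the R308 crosses it turned with no filter on low counts (1535 and 1600). Between the parents it was even with DESeq2 (129 and 129) and turned with only the libraries compared (115 and 132) and without RFB replicate 7. In seedlings it turned without WY998 replicate 1, WY308 replicate 2, RY998 replicate 1 or 3, or RY308 replicate 1. Of 728 values of single named genes under 51 settings, 690 stayed on their side of the threshold, 38 fell short of it and 0 changed sign; the 38 belonged to OsR498G0714837000.01, OsR498G0611656900.01 and OsR498G0101472900.01, whose adjusted p with the replicate block was 0.0536 and 0.0945 for the first 2. The 3 libraries of a line limit the precision of every value.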

Other observations

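In young seedlings, genes with the largest averaged effect were not always those of filling panicles. OsR498G0611538400.01 had 15.3, 16 and 14.1 CPM in WY998 seedlings and 7.35, 8.28 and 7.82 CPM in WY308, against 6.72, 6.88 and 6.44 CPM in RY998 and 0.131, 0.0532 and 0 CPM in RY308. In filling panicles it had 11.04 to 26.4 CPM in WFB hybrids and 1.80 to 14.0 CPM in RFB hybrids. Its averaged log2 difference of 1.58 there was smaller than the 4.04 of seedlings by a tested difference of -2.46 (edgeR adjusted p = 1.82e-06). OsR498G0613306500.01 had 7.35 to 13.6 CPM in WFB hybrid seedlings and 18.8 to 39.7 CPM in RFB hybrid seedlings (log2 -1.60, edgeR adjusted p = 6.66e-05). In filling panicles its groups overlapped, at 4.14 to 7.63 CPM in WFB hybrids and 4.61 to 7.94 CPM in RFB hybrids.

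In young panicles, OsR498G0100606400.01 had 33.6, 30.9 and 33.1 CPM in WY998 and 31.0, 29.3 and 30.9 CPM in WY308, against 23.2, 26.6 and 25.8 CPM in RY998 and 1.03, 0.878 and 1.10 CPM in RY308. Its averaged log2 difference of 2.63 (edgeR adjusted p = 8.51e-14) came mainly from the low level of RY308. In filling panicles WY308 had 6.48 to 9.83 CPM and RY998 6.64 to 7.24 CPM, while WY998 had 0.751 to 1.04 CPM and RY308 1.68 to 2.49 CPM, and the averaged effect did not pass (log2 -0.45, edgeR adjusted p = 0.338). OsR498G0306811500.01 was lower in WFB hybrid young panicles, at 22.2 to 43.0 CPM against 68.7 to 118 CPM in RFB hybrids (log2 -1.64, edgeR adjusted p = 7.77e-06), and did not exceed 0.299 CPM in any filling panicle library of the 4 hybrids.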
